A study of Mus musculus with 6 samples.

Results

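Heat shock and endoplasmic reticulum (ER) chaperone genes were followed in dendritic cells (DCs), the antigen-presenting cells that take up, process and display protein fragments to T cells. The set was a list of 39 gene symbols: 20 genes of cytosolic chaperones and their partners, 3 of mitochondrial chaperones, 12 of the ER folding machinery and 4 regulators or targets of the unfolded protein response (UPR). Members were found by symbol in the array's probe annotation, and the rule itself uses no measured value, although the list was drawn up with earlier results of these data known. A probe set that the annotation gives to 1 symbol alone was found for 38 of the 39 members, among 12394 genes measured. Hsp90ab1, the constitutive cytosolic HSP90, had none and was dropped.

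The 6 Affymetrix arrays held RNA of conventional DCs isolated by flow sorting for CD11c from BALB/c mice, an inbred strain. CD11c is the integrin encoded by Itgax. Lymph nodes and spleens were represented by 3 arrays each, numbered 1 to 3 in the labels, and the labels used here give no treatment, age, sex or genetic change for either group. Whether separate mice, pools or repeated preparations stand behind the arrays of a group is not stated, so every p-value refers to the spread among these hybridisations and that spread may be technical. Values are log2 of the deposited intensity, given in the order of array 1, 2 and 3, and a difference is always spleen minus lymph node on that scale. Array medians were 39.4 to 41.3 intensity units, and the 3 arrays per group limit the precision. Adjusted p-values come from limma over all 12394 genes, with 0.05 as the threshold.

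The labelled cell type was checked against 9 conventional DC markers. Their mean level was 10.45 to 10.51 in the lymph node arrays and 9.65 to 10.10 in the spleen arrays. For 8 of the 9 every spleen array lay below every lymph node array, beside 12.7% of all genes. Itgax, the gene of the sort marker, and Ciita, the activator of MHC class II genes, passed the threshold as lower in spleen, by -0.97 ± 0.17 (SE) and -1.45 ± 0.22 (SE) with limma's adjusted p = 0.031 and 0.0196. Ccl22 and Ccr7, which mark DCs arriving in lymph nodes from tissues, went against the labels. Both stand outside the lists used here, and no full list of such genes was read. Ccl22, a chemokine of such migratory DCs, was 4.37 ± 0.28 (SD, n = 3) in arrays with the lymph node label and 9.34 ± 0.066 (SD, n = 3) in arrays with the spleen label, and Ccr7, their homing receptor, was also higher in the latter by 1.47 ± 0.31 (SE) with limma's adjusted p = 0.0496. Every direction below therefore holds for the groups as labelled.

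Molecular chaperones bind proteins that are not yet, or no longer, folded. In the cytosol, HSP70 proteins work in cycles with HSP40 partners that deliver the client, HSP110 and BAG proteins that exchange the nucleotide, and HSP90 with its co-chaperones. Their genes are classical targets of heat shock factor 1, which binds repeats of the letters GAA and TTC in their promoters when proteins misfold. ER chaperones fold secreted and membrane proteins, in DCs among them the MHC molecules that carry antigen, and they are induced by the UPR through ATF6, XBP1 and ATF4, partly through a promoter element that joins CCAAT and CCACG.

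The promoters of the members are shown first, by the compartments whose array values are compared below, cytosol against ER. Only part of the members of either compartment held the full elements searched. Promoter sequences came from a RefSeq table of build GRCm38.p6 with 250 bases before to 50 bases after each annotated start, 32851 windows of 27025 genes. Of the 39 members, 34 had an entry, with 41 windows. The ER stress element was searched as CCAAT and CCACG with 9 free bases between them, on both strands. It was present in 0.119% of all windows, or for 0.137% of all genes with a window. Among the 11 ER members with a window, 6 held it: Hspa5, Hsp90b1, Dnajc3, Calr, Canx and Pdia6. None of the 17 cytosolic, 2 mitochondrial and 4 UPR members with a window held it. The 7 matches are given 5′ to 3′ in the direction of the element, with the CCAAT and CCACG letters in capitals and 8 bases on each side, and with the position of the element itself.
Hspa5 (chr2:34772025-34772043): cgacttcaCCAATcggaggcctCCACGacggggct
Hsp90b1 (chr10:86705533-86705551): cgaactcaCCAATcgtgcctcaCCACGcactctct
Hsp90b1 (chr10:86705638-86705656): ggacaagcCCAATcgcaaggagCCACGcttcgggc
Dnajc3 (chr14:118937827-118937845): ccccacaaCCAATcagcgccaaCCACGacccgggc
Calr (chr8:84847075-84847093): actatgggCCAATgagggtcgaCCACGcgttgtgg
Canx (chr11:50325800-50325818): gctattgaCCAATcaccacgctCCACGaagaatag
Pdia6 (chr12:17266491-17266509): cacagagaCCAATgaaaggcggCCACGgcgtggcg

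All 7 matches lay before the annotated start. The Hspa5 element ran from 65 to 47 bases before it, the Pdia6 element from 98 to 80, the Dnajc3 element from 105 to 87, the Canx element from 145 to 127 and the Calr element from 162 to 144. Hsp90b1 held the element in both orientations, from 107 to 89 bases before the start on the opposite strand and from 212 to 194 on the strand of the gene. The 250 bases before the start of Hspa5 and of Hsp90b1 are given along each gene, 5′ to 3′, with the letters of the element in capitals. These are the promoters of the ER HSP70 and the ER HSP90, whose values are set side by side further on.
Hspa5 (chr2:34771840-34772089, strand +): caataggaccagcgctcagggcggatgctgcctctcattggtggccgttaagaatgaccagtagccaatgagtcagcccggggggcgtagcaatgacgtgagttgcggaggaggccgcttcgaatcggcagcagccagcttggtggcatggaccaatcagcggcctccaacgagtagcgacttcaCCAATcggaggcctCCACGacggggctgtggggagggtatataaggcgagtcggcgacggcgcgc
Hsp90b1 (chr10:86705445-86705694, strand -): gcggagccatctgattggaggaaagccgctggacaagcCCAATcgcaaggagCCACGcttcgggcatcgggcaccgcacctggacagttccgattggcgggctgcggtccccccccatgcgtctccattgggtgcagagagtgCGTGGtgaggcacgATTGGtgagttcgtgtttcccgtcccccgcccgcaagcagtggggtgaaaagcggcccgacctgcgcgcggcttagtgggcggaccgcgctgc

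The heat shock element was searched as GAA, TTC and GAA with 2 free bases between them, on both strands. It was present in 0.603% of all windows, or for 0.662% of all genes with a window. Among the 17 cytosolic members with a window, 3 held it, Hsph1, Dnajb6 and Chordc1. Hspd1 and Hspe1, the mitochondrial HSP60 and its co-chaperonin HSP10, lie head to head and share the same matches between their starts. None of the ER or UPR members held it. The Dnajb6 and the shared match lay before the annotated start, the Hsph1 match lay after it, and Chordc1 held 3 overlapping matches, the one shown spanning the start and the others after it. In the lines that follow, the GAA and TTC letters of 1 match per gene are in capitals, with 8 bases on each side.
Hsph1 (chr5:149636288-149636300): actgaggaGAActTTCcaGAAtctgcagc
Dnajb6 (chr5:29735852-29735864): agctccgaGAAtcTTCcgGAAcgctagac
Chordc1 (chr9:18292263-18292275): tgcaaccgGAAcgTTCggGAAaattcctg
Hspd1 and Hspe1 (chr1:55088059-55088071): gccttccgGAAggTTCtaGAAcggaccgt

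A shorter form has 1 GAA and 1 TTC, 2 free bases apart, and every full element also contains it. This short form was present in 7.86% of all windows, or for 9.04% of all genes with a window. It was found for 9 of the 17 cytosolic members, both mitochondrial members with a window and none of the 11 ER members. Hspa1a and Hspa1b, the stress-inducible HSP70 genes, were among the 9. The 250 bases before their starts are given along each gene with the short form in capitals, since the pair is nearly identical: without gaps, 247 of 250 bases, or 98.8%, were the same, and both held the short form from 104 to 97 bases before the start. Whether the array tells these neighbouring copies apart was not tested, since no probe or transcript sequences were compared.
Hspa1a (chr17:34972157-34972406, strand -): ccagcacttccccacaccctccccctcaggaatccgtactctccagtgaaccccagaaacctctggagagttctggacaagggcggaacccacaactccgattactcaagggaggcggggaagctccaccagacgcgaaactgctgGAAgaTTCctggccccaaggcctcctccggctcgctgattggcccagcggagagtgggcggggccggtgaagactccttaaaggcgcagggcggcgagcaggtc
Hspa1b (chr17:34959239-34959488, strand -): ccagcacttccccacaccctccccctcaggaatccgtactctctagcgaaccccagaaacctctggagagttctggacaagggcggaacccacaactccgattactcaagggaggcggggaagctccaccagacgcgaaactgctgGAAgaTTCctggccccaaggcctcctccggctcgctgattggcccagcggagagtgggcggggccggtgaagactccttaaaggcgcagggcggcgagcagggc

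The XBP1 and ATF6 core, TGACG followed directly by TGG, was in 0.676% of all windows, and an ATF4 element, TGATG, 1 free base and AAT, in 0.965%. Neither was found in a window of a member. A match is a description of letters in these windows, and whether a factor bound there was not measured.

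Of the 38 measured members, 1 passed the threshold as higher in spleen and 0 as lower. Over all 12394 genes, 421 passed (3.40%), 251 as higher (2.03%) and 170 as lower (1.37%). At an unadjusted p under 0.05, limma called 10 members higher and 0 lower, beside 9.29% and 9.75% of all genes. Every spleen array lay above every lymph node array for 12 members and below for 0, while over all genes the groups separated in this way for 11.8% and 12.7%. The 12 were 5 of 19 cytosolic members (Hspa4, Hspa4l, Chordc1, Dnajb6 and Bag3) and 7 of 12 ER members (Hsp90b1, Hyou1, Dnajb11, Dnajc3, Canx, Pdia3 and Pdia4). These counts rest on the probe set used for each gene. Among the probe sets not used, some of Hspa8, Dnajb1, Hspa4 and Hspa9 lay wholly below in spleen. Some of Canx, Dnajc3, Hsp90b1 and Hspa4l lay wholly above. RNA of a whole sorted population was measured, so fewer cells of a type and less RNA per cell cannot be told apart.

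**Figure D1:**
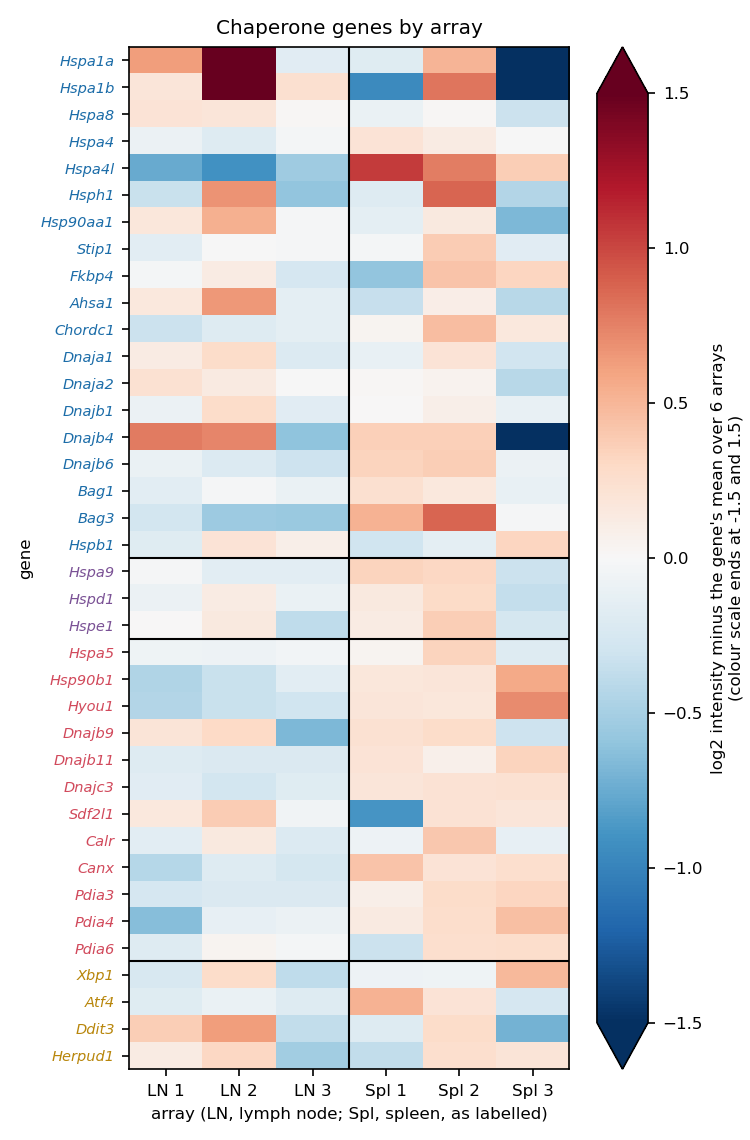
Heat map of the 38 members (rows, coloured by compartment: blue cytosolic, purple mitochondrial, red ER, ochre UPR regulators) in the 6 arrays (columns, LN lymph node, Spl spleen). Colour is log2 intensity minus the gene's mean over 6 arrays; Hspa1a and Hspa1b run from deep red in lymph node array 2 to deep blue in spleen array 3, and most ER rows turn from blue to red between the groups.

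Among the cytosolic HSP70 and HSP110 genes, Hspa4l was the member that passed. It encodes an HSP110-type relative of HSP70 that acts as a nucleotide exchange factor. It measured 5.05, 4.90 and 5.27 in the lymph node arrays and 6.85, 6.57 and 6.18 in the spleen arrays, and the groups did not overlap. It was higher in spleen by 1.46 ± 0.21 (SE), or 2.75-fold, with limma's adjusted p = 0.0171. Its other probe set measured 3.63, 4.69 and 4.39 in the lymph node arrays and 5.02, 5.61 and 5.26 in the spleen arrays, a difference of 1.06 whose adjusted p over all probe sets was 0.113. When each array was left out in turn, the adjusted p ran from 0.0121 to 0.0971, and it was above 0.05 without lymph node array 1 (0.0963), lymph node array 2 (0.0971) or spleen array 1 (0.0523).

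The stress-inducible HSP70 genes varied most among the members. Hspa1a measured 8.88, 9.99 and 8.08 in the lymph node arrays and 8.07, 8.77 and 5.73 in the spleen arrays, highest in array 2 and lowest in array 3 of either group, and the groups overlapped. Its difference was -1.46 ± 0.78 (SE), limma's adjusted p = 0.374. Hspa1b measured 9.45, 10.77 and 9.51 in the lymph node arrays and 8.32, 10.07 and 7.50 in the spleen arrays, again highest in array 2 of both groups. Its difference was -1.28 ± 0.64 (SE), adjusted p = 0.338, and its other 2 probe sets differed by -2.01 and -1.82. The pooled standard deviation within groups stood at the 99.7th percentile of all genes for Hspa1a and at the 99.2nd for Hspa1b, and neither difference was larger than the spread between arrays by limma's test.

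Hspa8, the constitutive HSC70 that also serves chaperone-mediated autophagy, measured 12.38, 12.36 and 12.19 in the lymph node arrays and 12.08, 12.19 and 11.85 in the spleen arrays, a narrow range with a difference of -0.27 ± 0.16 (SE) and adjusted p = 0.44. One of its other probe sets went much further. It measured 11.22, 11.44 and 10.65 in the lymph node arrays and 8.24, 9.51 and 8.67 in the spleen arrays, with no overlap, a difference of -2.30 and an adjusted p over all probe sets of 0.0216, while the remaining 2 differed by -0.32 and -0.23. Where in the transcript each probe set lies was not used here, and the cause of the discrepancy was not tested. Hspa4, the HSP110 relative APG-2, measured 10.79, 10.68 and 10.84 in the lymph node arrays and 11.08, 10.99 and 10.87 in the spleen arrays, groups that did not overlap by a small margin. Its difference was 0.21 ± 0.15 (SE) with adjusted p = 0.515, but another of its probe sets differed by -0.95.

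Hsph1, the heat-inducible HSP110, measured 8.77, 9.78 and 8.51 in the lymph node arrays and 8.91, 9.98 and 8.67 in the spleen arrays. Array 2 stood about as far above arrays 1 and 3 in the lymph node group as in the spleen group, and the difference between groups was 0.16 ± 0.42 (SE), adjusted p = 0.889. Hsp90aa1, the inducible cytosolic HSP90, measured 10.77, 11.14 and 10.58 in the lymph node arrays and 10.46, 10.75 and 9.93 in the spleen arrays, with overlap. Its difference was -0.45 ± 0.25 (SE), adjusted p = 0.391, and its other 2 probe sets had the same sign.

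The HSP90 co-chaperones went in both directions. Chordc1, a zinc-binding HSP90 partner, measured 8.93, 9.06 and 9.11 in the lymph node arrays and 9.30, 9.72 and 9.41 in the spleen arrays, with no overlap, a difference of 0.45 ± 0.17 (SE) and adjusted p = 0.212. Ahsa1, the activator of the HSP90 ATPase, measured 7.38, 7.87 and 7.07 in the lymph node arrays and 6.88, 7.31 and 6.80 in the spleen arrays, with overlap, a difference of -0.44 ± 0.25 (SE) and adjusted p = 0.395. Stip1, the adaptor that bridges HSP70 and HSP90, differed by 0.12 ± 0.19 (SE) and Fkbp4, an HSP90-bound immunophilin, by 0.11 ± 0.28 (SE). Neither of these passed at an unadjusted p under 0.05.

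The 5 HSP40 genes, which feed clients to HSP70, had a median difference of -0.13, and 0 passed the threshold. Dnajb6, an HSP40 that holds back protein aggregation, measured 9.31, 9.20 and 9.10 in the lymph node arrays and 9.74, 9.78 and 9.33 in the spleen arrays, with no overlap, a difference of 0.41 ± 0.18 (SE) and adjusted p = 0.276. Of its 3 other probe sets, 1 differed by 0.39 and the others by -0.10 and -0.052. Dnajb4 measured 9.11, 9.06 and 7.72 in the lymph node arrays and 8.69, 8.69 and 6.71 in the spleen arrays and was low in array 3 of both groups, with a within-group spread at the 98.8th percentile of all genes. Its difference was -0.60 ± 0.59 (SE), adjusted p = 0.66. Dnajb1, the main heat-inducible HSP40, differed by -0.0098 in the probe set used and by -1.44 in its other one, whose adjusted p over all probe sets was 0.140. Dnaja1 and Dnaja2 differed by -0.13 and -0.23.

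Bag3, the BAG protein that links HSP70 to selective autophagy, measured 4.27, 4.0 and 3.99 in the lymph node arrays and 5.07, 5.41 and 4.53 in the spleen arrays. All 3 spleen arrays were above all 3 lymph node arrays, and its difference of 0.92 ± 0.24 (SE), or 1.89-fold, had limma's adjusted p = 0.0858, short of the threshold. Without spleen array 3 its adjusted p was 0.0321, and without each of the other arrays it was 0.151 to 0.280. Bag1, the founding member of that family, differed by 0.19 ± 0.16 (SE), and Hspb1, the small heat shock protein HSP27, by -0.073 ± 0.21 (SE), both with overlapping groups.

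**Figure D2:**
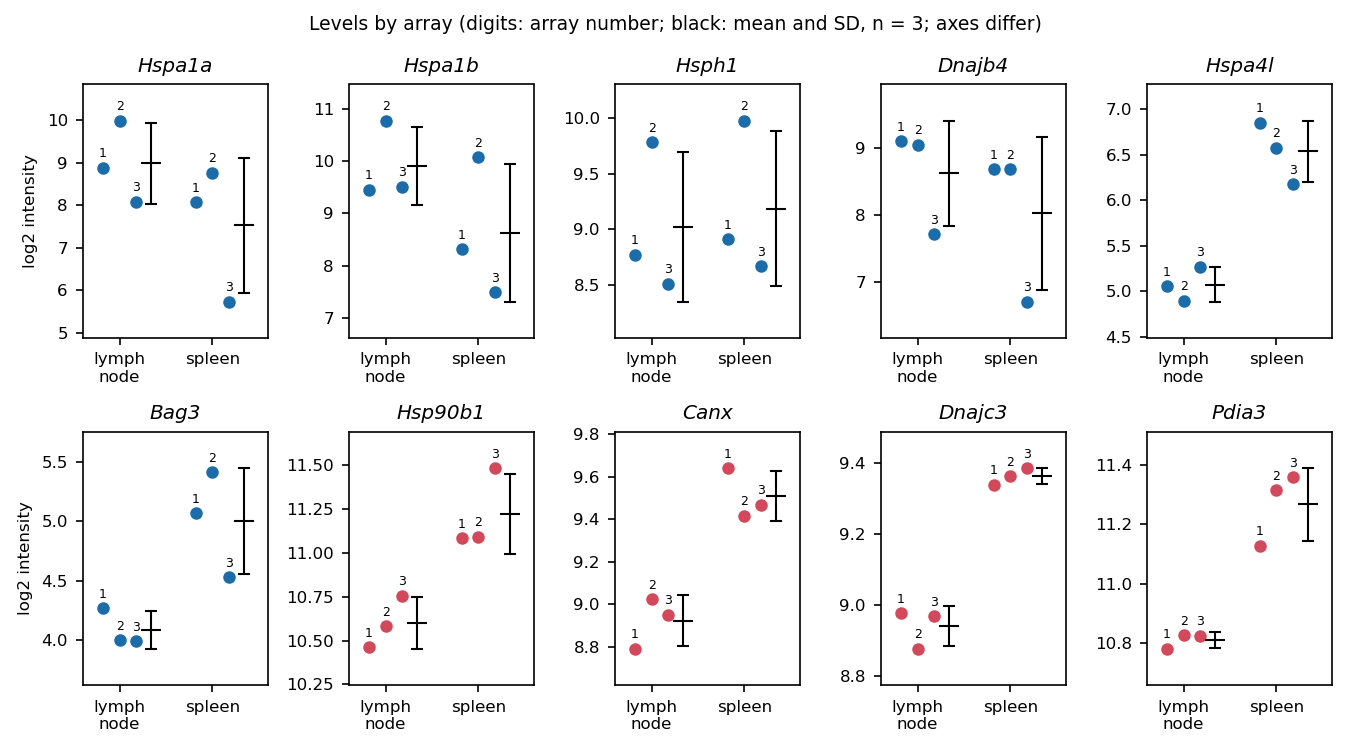
Log2 intensity of 10 members by array (points, labelled with the array number), with mean and SD of the 3 arrays in black; the axes differ between genes. Hspa1a, Hspa1b, Hsph1 and Dnajb4 spread widely within each group, while for Hspa4l, Bag3, Hsp90b1, Canx, Dnajc3 and Pdia3 every spleen array is above every lymph node array.

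The mitochondrial chaperones, which refold imported proteins in the matrix, showed small differences within overlapping groups. Hspa9, the mitochondrial HSP70 mortalin, measured 8.87, 8.73 and 8.73 in the lymph node arrays and 9.22, 9.20 and 8.57 in the spleen arrays, a difference of 0.22 ± 0.21 (SE) and adjusted p = 0.649. Hspd1 measured 10.03, 10.25 and 10.03 in the lymph node arrays and 10.27, 10.41 and 9.76 in the spleen arrays, a difference of 0.046 ± 0.21 (SE) and adjusted p = 0.936. Its partner Hspe1 measured 9.87, 10.01 and 9.49 in the lymph node arrays and 9.99, 10.23 and 9.60 in the spleen arrays, a difference of 0.15 ± 0.22 (SE) and adjusted p = 0.787. Spleen array 3 was the lowest spleen array for all 3 genes.

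The 12 ER members were positive in 11 cases, with a median difference of 0.42 and a range from -0.32 to 0.71, beside a median of -0.0053 over all genes. None passed the threshold in limma, while 7 of the 12 had an unadjusted p under 0.05 as higher (9.29% of all genes), the same 7 whose groups did not overlap. Hsp90b1, the ER HSP90 also called GRP94 or gp96, which folds Toll-like receptors and integrins, measured 10.46, 10.58 and 10.76 in the lymph node arrays and 11.08, 11.09 and 11.48 in the spleen arrays. Its difference was 0.62 ± 0.18 (SE), or 1.54-fold, with adjusted p = 0.111. Its other probe set measured 9.68, 9.64 and 10.01 in the lymph node arrays and 10.64, 10.58 and 10.80 in the spleen arrays, a difference of 0.90 with an adjusted p over all probe sets of 0.0421. Both probe sets of Hsp90b1 thus separated the groups, and 1 of them passed 0.05.

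Hspa5, the ER HSP70 known as BiP and the usual gauge of the UPR, had overlapping groups. It measured 11.63, 11.63 and 11.66 in the lymph node arrays and 11.74, 12.03 and 11.51 in the spleen arrays, so that spleen array 3 was the lowest of the 6 arrays and spleen array 2 the highest. Its difference was 0.12 ± 0.18 (SE), adjusted p = 0.787, and its other probe set differed by -0.011. Hyou1, the ER HSP110 that serves as its nucleotide exchange factor, measured 8.16, 8.27 and 8.31 in the lymph node arrays and 8.78, 8.77 and 9.31 in the spleen arrays, with no overlap. It differed by 0.71 ± 0.19 (SE), or 1.63-fold, adjusted p = 0.0953, and its other 2 probe sets by 0.12 and 0.49.

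Dnajc3, an ER HSP40 known as p58IPK, was the tightest of the members. It measured 8.98, 8.88 and 8.97 in the lymph node arrays and 9.34, 9.36 and 9.39 in the spleen arrays, and its within-group spread was at the 0.298th percentile of all genes. The difference was 0.42 ± 0.14 (SE), adjusted p = 0.162, and its other 4 probe sets were all positive. Dnajb11, another BiP partner, measured 9.74, 9.72 and 9.72 in the lymph node arrays and 10.15, 10.02 and 10.28 in the spleen arrays, with no overlap and a difference of 0.42 ± 0.15 (SE). Dnajb9, an HSP40 of ER-associated degradation, differed by 0.12 ± 0.30 (SE) and Sdf2l1, which works with Dnajb11, by -0.32 ± 0.31 (SE), both with overlap. Sdf2l1 was the sole negative ER member and its spleen array 1, at 6.0, lay about 1 unit below spleen arrays 2 and 3.

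The lectin chaperones and disulfide isomerases include the peptide-loading partners of MHC class I. Canx, the membrane-bound lectin calnexin, measured 8.79, 9.02 and 8.95 in the lymph node arrays and 9.64, 9.42 and 9.47 in the spleen arrays, with no overlap, a difference of 0.59 ± 0.16 (SE) and adjusted p = 0.09. Its other 2 probe sets differed by 0.56 and 0.54. Calr, the soluble lectin calreticulin, measured 8.94, 9.25 and 8.90 in the lymph node arrays and 9.03, 9.51 and 8.97 in the spleen arrays, with overlap, a difference of 0.14 ± 0.20 (SE) and adjusted p = 0.775. Pdia3, the isomerase ERp57 of the peptide-loading complex, measured 10.78, 10.83 and 10.83 in the lymph node arrays and 11.13, 11.31 and 11.36 in the spleen arrays, with no overlap, a difference of 0.46 ± 0.15 (SE) and adjusted p = 0.152. The lectin that differed between groups beyond the array ranges was thus calnexin, while calreticulin did not separate them. Whether Canx and Calr differ from each other was not tested.

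Pdia4, the isomerase ERp72, measured 6.96, 7.48 and 7.51 in the lymph node arrays and 7.73, 7.86 and 8.05 in the spleen arrays, with no overlap, a difference of 0.56 ± 0.20 (SE) and adjusted p = 0.184. Its second probe set differed by -0.077. Pdia6, a further isomerase, differed by 0.13 ± 0.20 (SE) with overlap. Under other settings limma called some ER members higher: Hsp90b1, Canx and Pdia3 with the trend and robust options, Canx and Dnajc3 on log2 of the value plus 16, and Hsp90b1 with the mean of its probe sets. Of the 6 ER members with the stress element in their promoter window, 3 separated the groups (Canx, Dnajc3 and Hsp90b1), and of the 5 without it 3 did (Dnajb11, Pdia3 and Pdia4). Over all 18 measured genes with the element, these 6 included, the median difference was 0.086 and 0 passed the threshold. Every spleen array lay above every lymph node array for 5, or 27.8%, beside 11.6% of the measured genes whose window lacks it. The 5 were Canx, Dnajc3 and Hsp90b1, with Creld2 and Ero1b of the further ER genes read below. All 5 belong to the ER lists used here, so this share repeats the ER values and is no separate result about the element.

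**Figure D3:**
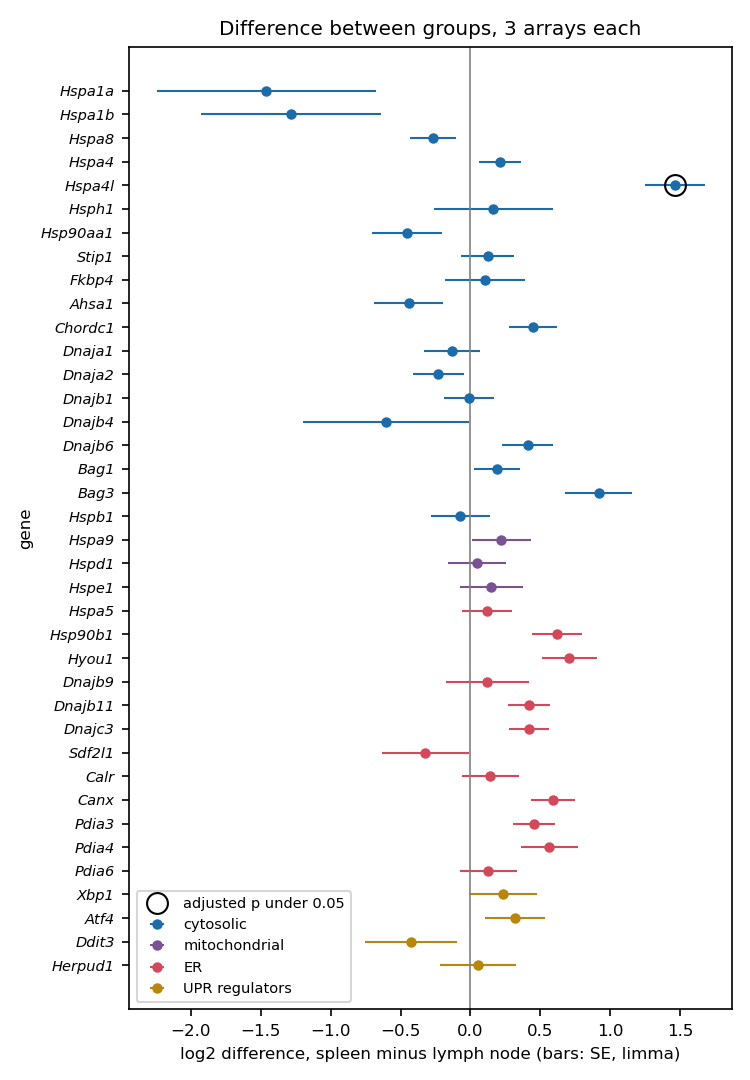
Log2 difference, spleen minus lymph node, of the 38 members with the standard error of limma (bars), coloured by compartment; the circle marks the gene with an adjusted p under 0.05, Hspa4l. The red ER points lie right of 0 except Sdf2l1, while the blue cytosolic points lie on both sides, from -1.46 to 1.46.

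None of the 4 UPR members, which are regulators or targets, separated the groups. Xbp1, the transcription factor activated by IRE1 splicing, measured 6.78, 7.30 and 6.64 in the lymph node arrays and 6.95, 6.96 and 7.51 in the spleen arrays, a difference of 0.23 ± 0.24 (SE) and adjusted p = 0.679. The array values do not say how much of its RNA was spliced. Atf4, the factor translated when the PERK arm is active, measured 9.47, 9.54 and 9.45 in the lymph node arrays and 10.16, 9.86 and 9.39 in the spleen arrays, a difference of 0.32 ± 0.21 (SE) and adjusted p = 0.491, while a second probe set differed by -0.27. Ddit3, its pro-apoptotic target CHOP, measured 7.63, 7.88 and 6.89 in the lymph node arrays and 7.06, 7.53 and 6.54 in the spleen arrays, a difference of -0.42 ± 0.33 (SE) and adjusted p = 0.557. Herpud1, a target that assists ER-associated degradation, differed by 0.052 ± 0.27 (SE). Ddit3 had the lowest value of each group in array 3.

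The compartments were also compared per array. Each gene was set to its own mean over the 6 arrays, and the members of a compartment were averaged within an array. The 12 ER members averaged -0.22, -0.074 and -0.20 in the lymph node arrays and 0.032, 0.24 and 0.22 in the spleen arrays, with no overlap, at group means of -0.16 ± 0.080 and 0.16 ± 0.12 (SD, n = 3). The 19 cytosolic members averaged -0.0012, 0.26 and -0.19 in the lymph node arrays and -0.0094, 0.35 and -0.41 in the spleen arrays, so that array 2 was high and array 3 low in either group. The 3 mitochondrial members averaged -0.035, 0.039 and -0.21 against 0.20, 0.32 and -0.31. The 4 UPR members averaged 0.019, 0.28 and -0.37 against -0.032, 0.17 and -0.071. ER minus cytosolic came to -0.22, -0.33 and -0.014 in the lymph node arrays and 0.042, -0.11 and 0.63 in the spleen arrays, with overlap and the highest value in spleen array 3. These averages are descriptions, with no test.

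**Figure D4:**
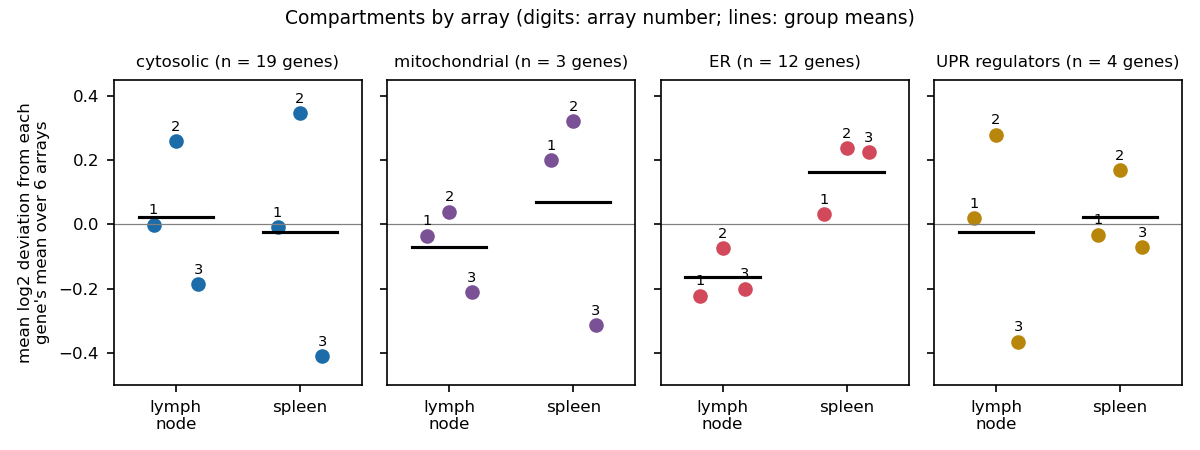
Mean log2 deviation from each gene's own mean over 6 arrays, for the members of 4 compartments, by array (points, labelled with the array number; lines are group means). The ER points of the spleen arrays, 0.032 to 0.24, are all above those of the lymph node arrays, -0.22 to -0.074, while the cytosolic points spread from -0.41 to 0.35 with both groups overlapping.

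The same arrays led or trailed for most members. Lymph node array 2 was the highest of its group for 23 of 38 members and spleen array 2 for 23 of 38, compared with 31.2% and 27.7% of all genes. Lymph node array 3 was the lowest of its group for 22 members and spleen array 3 for 24, compared with 36.0% and 29.8% of all genes. Among the 19 cytosolic members spleen array 2 was highest for 15 and spleen array 3 lowest for 16, whereas spleen array 3 was the highest spleen array for 7 of the 12 ER members. Within-group spread was above the 95th percentile of all genes for 4 members, Hspa1a, Hspa1b, Hsph1 and Dnajb4, and under the 10th for 5, Hspa4, Dnajb11, Dnajc3, Canx and Pdia3. The ER members were under the median spread of all genes in 10 of 12 cases.

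Several members were measured by more than 1 probe set. Of the 38, 26 had several, 82 probe sets in all, and for 19 of the 26 all had the same sign of difference. The exceptions were Hspa4, Dnajb6, Hspa9, Hspa5, Pdia4, Atf4 and Herpud1, each with at least 1 probe set on either side of 0. Probe sets of Hspa8 and Dnajb1 agreed in sign but differed in size by over 1 unit. When probe sets with the suffixes for shared or cross-hybridising designs were left out, 33 members remained, Hspa8 was called lower through its divergent probe set (limma's adjusted p = 0.0169), and Hspa4l, whose other probe set was then used, no longer passed.

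**Figure D5:**
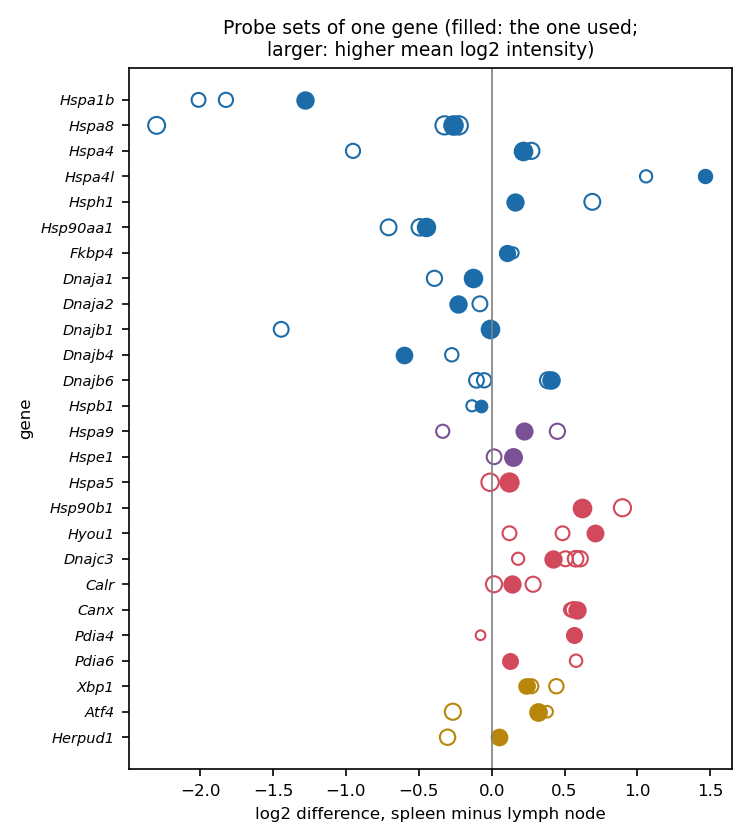
Log2 difference, spleen minus lymph node, of every probe set of the 26 members that have several; filled points are the probe sets used (highest mean over 6 arrays), open points the others, and larger points have a higher mean log2 intensity. Canx and Dnajc3 probe sets all lie right of 0, while Hspa8 ranges from -2.30 to -0.23 and Hspa4 from -0.95 to 0.27.

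Other genes of the same pathways were read from the same fit. Of 31 further cytosolic chaperone genes measured (of 36 listed), 1 rose (2.03% of all genes) and 0 fell (1.37%), with a median difference of 0.065. The gene that rose was Dnajb2, an HSP40 known from neurons. It measured 5.21, 5.0 and 5.61 in the lymph node arrays and 7.12, 6.62 and 6.78 in the spleen arrays, a difference of 1.57 ± 0.22 (SE) or 2.96-fold, with limma's adjusted p = 0.0135. Without lymph node array 1 or 2 the adjusted p was 0.0816 or 0.0756. Every spleen array was above every lymph node array for 5 of the 31 and below for 4, beside 11.8% and 12.7% of all genes. The 9 further mitochondrial genes measured (of 10) had a median of -0.35, with 8 negative and 0 past the threshold. Their smallest p belonged to Clpb, a disaggregase, which differed by -0.50 ± 0.22 (SE) with adjusted p = 0.281.

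Of 33 further ER folding and degradation genes measured (of 34), 0 passed the threshold, 14 had an unadjusted p under 0.05 as higher (9.29% of all genes) and 3 as lower (9.75%), and the median difference was 0.26. Every spleen array lay above every lymph node array for 15 of the 33 and below for 3, beside 11.8% and 12.7% of all genes. Dnajc1, an ER-membrane HSP40, measured 8.15, 8.09 and 8.03 in the lymph node arrays and 8.90, 8.71 and 8.74 in the spleen arrays, a difference of 0.69 ± 0.15 (SE) with adjusted p = 0.0519, the smallest of the list. Creld2, an ER stress gene that holds the stress element, and Sec61a1, the pore subunit of the ER translocon, were named after their values were seen. They differed by 1.0 ± 0.22 (SE) and 0.71 ± 0.16 (SE), with adjusted p = 0.053 and 0.0613. The genes on the other side were Cnpy3, a co-chaperone of Hsp90b1 for Toll-like receptors, at -1.22, Ssr1, a translocon-associated subunit, at -0.94 and Ppib, cyclophilin B, at -0.55, also named after their values were seen.

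Among 14 further UPR sensors and stress response genes (of 15), 0 rose (2.03% of all genes) and 1 fell (1.37%), with a median of -0.19. The groups did not overlap for 3 of the 14 as higher in spleen and for 3 as lower, beside 11.8% and 12.7% of all genes. Those higher were Ern1, Creb3l2 and Nupr1. Those lower were Ddit4, Chac1 and the sensor Atf6, which differed by -0.75 with limma's adjusted p = 0.0858. Ddit4, an inhibitor of mTORC1 signalling, measured 10.30, 11.11 and 10.91 in the lymph node arrays and 8.44, 9.33 and 9.62 in the spleen arrays, with no overlap. It fell by 1.64 ± 0.34 (SE) on the log2 scale, or 3.12-fold, with limma's adjusted p = 0.0456. Leaving out an array kept the sign each time, but limma's adjusted p was 0.0395 without spleen array 3 and 0.0711 to 0.178 without each of the other arrays. All 14 immediate early genes, which respond within minutes to stress and tissue handling, were measured. None passed the threshold, 5 of the 14 had an unadjusted p under 0.05 as lower (9.75% of all genes), and their median was -0.35. Ier2 had the smallest p. It measured 8.76, 8.36 and 6.68 in the lymph node arrays and 5.85, 6.65 and 4.73 in the spleen arrays, a difference of -2.19 ± 0.62 (SE) with adjusted p = 0.107.

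Markers of other cell types and control probe sets also differed between the groups, and their values stand beside the ER result. Plasmacytoid DC markers averaged 5.19 to 6.15 in the lymph node arrays and 6.79 to 8.30 in the spleen arrays, and spleen array 3 was the highest. Of 10 measured, 7 were higher with no overlap (11.8% of all genes), 3 of them past the threshold (Ccr9, Klk1 and Blnk, beside 2.03% of all genes). B cell and plasma cell markers averaged 4.31 to 5.19 against 4.89 to 6.02, with 7 positive and 3 negative differences. Of the 10, 1 passed the threshold, Sdc1, as higher, while Irf4 was lower in spleen with no overlap (-0.79). The plasma cell gene Jchain reached 8.37 in spleen array 1 and 7.39 in lymph node array 3 but 4.54 to 4.85 in the other arrays. T cell markers averaged 4.39 to 5.38 against 5.37 to 6.45, with 7 positive and 3 negative differences. Cd28 and Il7r passed the threshold as higher, while Cd3e, Cd3d and Cd3g overlapped between the groups. NK cell markers averaged 4.88 to 6.14 against 5.40 to 7.21, with 0 of 8 past the threshold. Neutrophil markers averaged 3.78 to 4.75 against 3.04 to 3.53, and 5 of 8 were lower in spleen with no overlap (12.7% of all genes). Of these, 1, Camp, passed the threshold as lower (-1.37, limma's adjusted p = 0.0425), beside 1.37% of all genes. None of 10 red pulp macrophage markers passed, at averages of 4.16 to 6.15 against 4.25 to 4.62. Their part in the ER and cytosolic values was not tested.

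The poly-A controls, bacterial transcripts added to the RNA, averaged 7.39, 7.80 and 7.96 in the lymph node arrays and 9.01, 8.41 and 9.06 in the spleen arrays. The 3′ minus 5′ signal of Gapdh was 2.60, 2.70 and 2.79 against 3.44, 3.25 and 3.14, and neither of these measures overlapped between groups. The same measure for actin overlapped, at means of -0.26 and -0.24, while the 5′ signal of 18S ribosomal RNA did not, at 12.34, 12.40 and 12.18 against 11.29, 11.79 and 11.63. With the poly-A control level as a covariate, limma called 0 of 12394 genes, with 701 at an unadjusted p under 0.05, and Hspa4l no longer passed. The median difference of the ER members was then 0.31 and that of the cytosolic members 0.53, so the ER members did not lie above the cytosolic ones in that fit, and the differences of Hspa1a and Hspa1b turned to 0.94 and 0.77. Because the control level itself did not overlap between the groups, that fit cannot tell it apart from the group label. No conclusion is drawn from it. Without any 1 array, the number of ER members whose groups did not overlap was 7 or 8 of 12, and that of cytosolic members 5 or 6 of 19. The share over all genes ran from 14.6% to 18.5%, beside 11.8% with all arrays. Leaving out an array cannot create an overlap, so these counts could not fall and are no check of the separation.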

How the data were processed

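The authors deposited 1 table of intensity values per probe set on a linear scale for 6 arrays. The submitters' processing notes name RMA and limma. Their versions are not given in the sources used here, nor whether a floor or scaling followed. Per the labels' protocols, 2 ng of total RNA with an integrity number above 8.4, extracted with 20 ng of carrier RNA, was amplified.

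Of 22690 probe sets, 20393 had 1 symbol; each gene was its probe set with the highest mean. Log2 values were compared in R 4.3.3 with limma 3.58.1 (lmFit, eBayes), two-sided, with Benjamini-Hochberg adjustment over 12394 genes. Functions were tested on simulated data. The members, lists and alternatives were chosen with earlier results of these data known.

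The text names every member past the threshold, the 3 with the smallest p in each of 10 role groups, 12 members by default (Hspa1a, Hspa1b, Hspa8, Hsp90aa1, Hsp90ab1, Hspd1, Hspa5, Hsp90b1, Calr, Xbp1, Atf4 and Ddit3) and, per related list, up to 4 past the threshold or the 1 with the smallest p. Other members were named after their values were seen. Protein ends were not analysed here. Alternatives were other scalings, filters, offsets, variance models, probe set choices, a replicate block, a poly-A covariate, leaving out each array and a threshold of 0.01.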

Additional observations from a re-analysis of the deposited data

How the results depend on the processing

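Against 421 genes past the threshold in the fit as reported, array weights gave 764, a threshold of 0.01 gave 63 and the poly-A covariate 0, and leaving out each array gave 47 to 475. Members called higher, 1 as reported, were 3 with log2 of the value plus 16 (Canx, Dnajc3 and Hspa4l), 4 with trend and robust (Canx, Hsp90b1, Hspa4l and Pdia3), 2 with array weights (Bag3 and Hspa4l), 2 with the mean of all probe sets (Hsp90b1 and Hspa4l), 0 to 2 without each array, and 0 without suffixed probe sets, with the poly-A covariate or at 0.01. Members called lower, 0 as reported, were 1 without suffixed probe sets (Hspa8). Other pathway genes called higher and lower, 1 and 1 as reported, were 2 and 1 after centring, 1 and 2 after a second quantile normalization, 5 and 3 with a filter at the median level, 3 and 1 with the offset, 5 and 2 with trend and robust, 6 and 4 with array weights, 2 and 1 with the mean of probe sets, 0 and 1 without suffixed probe sets, 0 and 0 with the poly-A covariate or at 0.01, and 0 to 3 and 0 to 4 without each array. With the replicate block they were 4 and 5, Hspa4l was the member called, Ier2 had an adjusted p of 0.013 (called), and Hspa1a and Hspa1b had 0.0602 and 0.0614 by limma; same-numbered arrays correlated in their deviations at 0.022, 0.24 and 0.16 over all genes and at 0.42, 0.78 and 0.66 over the members. Over all genes 2 of 3 matched best with their own number, the labels give the numbers no meaning, and they were not taken to pair the arrays. The compartment medians kept within the spread between arrays except the UPR regulators without suffixed probe sets (-0.28) and, with the poly-A covariate, the cytosolic (0.53), mitochondrial (0.69), ER (0.31) and UPR members (0.59). Signs turned with the poly-A covariate for Hspa1b (0.77), Hspa1a (0.94), Hsp90aa1 (0.21), Ahsa1 (0.17), Dnaja2 (0.23), Dnajb4 (1.45), Ddit3 (0.80), Xbp1 (-0.098), Hspa8 (0.11) and Ier2 (0.71), and without suffixed probe sets for Atf4 (-0.27). Over the fits without each array, signs turned within the ranges of Hspb1 (-0.25 to 0.057, positive without lymph node array 2, 0.011, or spleen array 1), Hspe1 (-0.0024 to 0.32, negative without lymph node array 3), Hspd1 (-0.085 to 0.24, negative without spleen array 1, -0.015, or 2), Stip1 (-0.037 to 0.24), Hspa5 (-0.016 to 0.24) and Calr (-0.026 to 0.25), negative without spleen array 2, and Dnajb4 (-1.06 to 0.059, positive without spleen array 3). Of the named genes' values under the alternatives, 500 kept direction and side of the threshold, 18 were no longer called, 15 became called and 20 turned in sign. The causes were not tested, and the fit with the poly-A covariate cannot tell the control level apart from the group label. The filter kept 36 members of 6197 genes. With 3 arrays against 3, an exact two-sided permutation test cannot go below 0.10, and no detection calls were used, so how far dim probe sets stood above background was not analysed here.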

Other observations

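Members that were highest in array 2 of the lymph node group and also in array 2 of the spleen group numbered 16 of 38, beside 11% of all genes, and members lowest in array 3 of both groups numbered 18, beside 12.7% of all genes. The 16 included Hspa1a, Hspa1b, Hsph1, Hsp90aa1, Stip1 and Calr, and the 18 included Hspa1a, Hspa8, Dnajb1, Dnajb4, Hspd1 and Ddit3. The labels do not say what arrays of the same number share. The immediate early genes, centred per gene, averaged 0.85, 0.53 and -0.37 in the lymph node arrays and -0.0098, 0.23 and -1.23 in the spleen arrays, so array 3 was lowest in each group for them too. The 57 measured genes with a heat shock element in their promoter window had a median difference of -0.023. Of these 57, 3 had a within-group spread above the 90th percentile, beside 987 of the 9831 measured genes whose window lacks it.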
